A study of Mus musculus with 12 samples.

Results

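The non-coding snoRNA host genes are transcripts that make no known protein and carry small nucleolar RNAs (snoRNAs) in their introns. Snhg1, Snhg3, Snhg4, Snhg6, Snhg8, Snhg9, Snhg12 and Gas5 were taken by name, which gave 8 of the 23235 gene symbols in the deposited table. Poly(A) RNA was measured in Mtr4-null oocytes and in wild-type (WT) oocytes taken from mouse ovaries at postnatal day 14 and day 21, so that the groups were Mtr4-null day 14, WT day 14, Mtr4-null day 21 and WT day 21. WT day 14 oocytes are described as growing germinal vesicle (GV) oocytes and WT day 21 oocytes as GV oocytes. The labels list 12 samples, 3 per group, each of 10 oocytes, whereas the design text speaks of duplicates. How the Mtr4-null allele was made, which promoter drove any Cre, and whether a group's samples are from separate animals are not given in the sources used here.

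A host gene is transcribed whole, and its snoRNAs are cut from the introns after splicing and trimmed by exonucleases, the nuclear RNA exosome among them. Box C/D snoRNAs guide the methylation of ribosomal RNA, and box H/ACA snoRNAs guide its conversion of uridine to pseudouridine. The spliced exons that remain often hold short reading frames, and in many cell types they are degraded in the cytoplasm by nonsense-mediated decay. MTR4 is the RNA helicase that unwinds nuclear RNA and hands it to the exosome.

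The deposited values were FPKM, fragment counts scaled to transcript length and library size, with 1 mean per gene and group made by the authors. There was therefore no replicate error, nothing could be tested, and library depth is unknown. A difference below is log2(FPKM + 1) in the first group less that in the second, and genes at least 2-fold apart (a difference of 1) are counted by size alone, among the 11913 genes with a mean of at least 1 FPKM over the 4 groups. That scale understates the change of genes with low FPKM, so plain FPKM ratios are given beside it. All 8 members passed this filter, but Snhg4, Snhg8 and Snhg12 were under 1 FPKM in both WT groups and passed through their Mtr4-null values. In Mtr4-null day 21, 92.3% of 2211 values from 10 to 100 with 5 decimals end in 5, as a mean of 2 would, while in the other groups 55.4% to 57.4% of values end in repeating 3s or 6s, as a mean of 3 would, so this group may average fewer libraries than its label lists. Skiv2l2, the older symbol of the gene that encodes MTR4, stood at 1.57 FPKM in Mtr4-null and 27.6 FPKM in WT oocytes at day 14, and at 3.86 FPKM in Mtr4-null and 26.3 FPKM in WT oocytes at day 21. The 12 oocyte markers, such as zona pellucida genes, summed to 19606 FPKM in Mtr4-null and 19457 FPKM in WT oocytes at day 14, and to 10037 FPKM in Mtr4-null and 14597 FPKM in WT oocytes at day 21. The 14 granulosa cell markers summed, at day 14 and day 21, to 26.5 and 27.5 FPKM in Mtr4-null and to 28.0 and 38.8 FPKM in WT oocytes. The day 21 sums turn on Cyp19a1, at 1.48 FPKM in Mtr4-null and 25.3 FPKM in WT oocytes, whereas 9 of the 14 markers had the higher value in Mtr4-null oocytes at day 21, among them Inha at 10.9 FPKM in Mtr4-null and 1.72 FPKM in WT oocytes and Gja1 at 2.34 FPKM in Mtr4-null and 0.444 FPKM in WT oocytes. The 16 markers of theca, stromal, endothelial and blood cells summed to 13.99 and 4.87 FPKM in Mtr4-null and to 16.8 and 24.4 FPKM in WT oocytes, with Hbb-b1 and Hba-a1 (haemoglobin) at 0 in every group. Pecam1 alone gave 2.13 FPKM of this sum in Mtr4-null and 20.7 FPKM in WT oocytes at day 21, and 6 of the 16 markers had the higher value in Mtr4-null oocytes. The part of these other cells in the results was not tested. FPKM are relative to all RNA of a library, so a change in RNA per oocyte cannot be told apart from a change in these genes' share.

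The members differ in the snoRNAs they carry. Gene models from GENCODE vM21 on the mouse build GRCm38 placed 28 short RNA models inside the 8 genes on the same strand. For Snhg4 the span came from RefSeq, and its strand was taken from the short RNAs inside it. Of the 28 models, 19 held the box C/D motifs and 7 the ACA near the end that marks box H/ACA snoRNAs. Snora44 was placed in the H/ACA class by its name alone, and Mir1949 in Snhg4 held neither set of boxes. Snhg1 carries 8 box C/D models, Gas5 carries 9, and Snhg6 carries Snord87 alone. Snhg3 carries the closely alike Snora73a and Snora73b, Snhg4 carries Snora74a, Snhg8 carries Snora24 and Snhg9 carries Snora78. Snhg12 carries Snora16a, Snora44 and Snora61 together with the box C/D snoRNA Snord99. The sequences of snoRNAs from 5 hosts are shown as examples of both classes. They are GENCODE vM21 models on GRCm38, 5′ to 3′, with the ACA box of H/ACA snoRNAs and the C box core and D box of C/D snoRNAs in capitals.
Snora73a in Snhg3 (chr4:132352775-132352979, minus strand): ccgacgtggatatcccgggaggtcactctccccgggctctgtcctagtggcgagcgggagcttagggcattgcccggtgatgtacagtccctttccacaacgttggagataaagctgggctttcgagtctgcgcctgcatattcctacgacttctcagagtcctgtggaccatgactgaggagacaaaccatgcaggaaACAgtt
Snora73b in Snhg3 (chr4:132352322-132352526, minus strand): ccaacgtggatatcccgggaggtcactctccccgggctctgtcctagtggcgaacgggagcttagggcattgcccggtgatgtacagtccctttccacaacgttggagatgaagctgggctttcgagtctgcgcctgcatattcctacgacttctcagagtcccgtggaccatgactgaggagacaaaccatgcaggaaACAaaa
Snora78 in Snhg9 (chr17:24719676-24719803, minus strand): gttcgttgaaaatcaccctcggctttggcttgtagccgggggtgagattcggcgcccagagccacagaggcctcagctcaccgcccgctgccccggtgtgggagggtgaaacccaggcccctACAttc
Snora24 in Snhg8 (chr3:123507937-123508066, minus strand): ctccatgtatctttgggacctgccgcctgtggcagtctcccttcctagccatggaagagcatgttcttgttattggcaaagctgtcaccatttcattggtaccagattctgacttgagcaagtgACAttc
Snord87 in Snhg6 (chr1:9942463-9942549, minus strand): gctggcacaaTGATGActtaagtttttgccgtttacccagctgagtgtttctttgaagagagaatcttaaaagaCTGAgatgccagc
Snord47 in Gas5 (chr1:161038082-161038158, plus strand): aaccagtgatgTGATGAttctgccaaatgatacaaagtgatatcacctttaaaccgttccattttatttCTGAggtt

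The first question is how the loss of MTR4 relates to the level of these hosts in growing oocytes at day 14. Of the 8 members, 4 were at least 2-fold higher in Mtr4-null than in WT oocytes and 0 were lower, where 8.1% of all 11913 genes were higher and 1.55% lower. The members' median difference was 1.05, against 0.052 over all genes. Of the 4, Snhg4 and Snhg8 were under 1 FPKM in both WT groups and passed the filter only through their Mtr4-null values. Their calls therefore say little, which leaves Snhg3 and Snhg9. The median also holds Snhg4, Snhg8 and Snhg12, which passed in that way. Long non-coding genes as a class were also often higher, with 38.5% of the 579 others at least 2-fold higher, 3.11% lower and a median difference of 0.64.

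Snhg3, host of the U17 snoRNAs that take part in the cutting of ribosomal RNA precursors, stood at 140 FPKM in Mtr4-null and 5.32 FPKM in WT oocytes at day 14, a 26.3-fold ratio. Snhg9 stood at 209 FPKM in Mtr4-null and 12.6 FPKM in WT oocytes, a 16.6-fold ratio. Snhg4 stood at 16.4 FPKM in Mtr4-null and 0.650 FPKM in WT oocytes, a 25.2-fold ratio. By difference, Snhg3 ranked 71, Snhg9 ranked 109 and Snhg4 ranked 152 of 11913 genes. Snhg8, host of Snora24, was low in both groups, with 2.47 FPKM in Mtr4-null and 0.619 FPKM in WT oocytes and a difference of 1.10. That difference was 0.99 under median-of-ratios scaling and 0.81 under quantile normalization, short of 2-fold. Snhg12 stood at 1.40 FPKM in Mtr4-null and 0.203 FPKM in WT oocytes, a ratio of 6.90 whose difference of 0.996 fell just short of the size rule, and with a pseudocount of 0.1 it was 2.31.

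The hosts of box C/D snoRNAs alone were close in both genotypes at day 14. Gas5, first known as a gene whose transcript gathers in growth-arrested cells, stood at 5.24 FPKM in Mtr4-null and 3.48 FPKM in WT oocytes, a difference of 0.48. Snhg6 stood at 93.0 FPKM in Mtr4-null and 97.0 FPKM in WT oocytes, and Snhg1 at 15.8 FPKM in Mtr4-null and 19.5 FPKM in WT oocytes. Their differences of -0.060 and -0.29 were those of the only members with a lower value in Mtr4-null oocytes, and neither reached 2-fold.

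**Figure D1:**
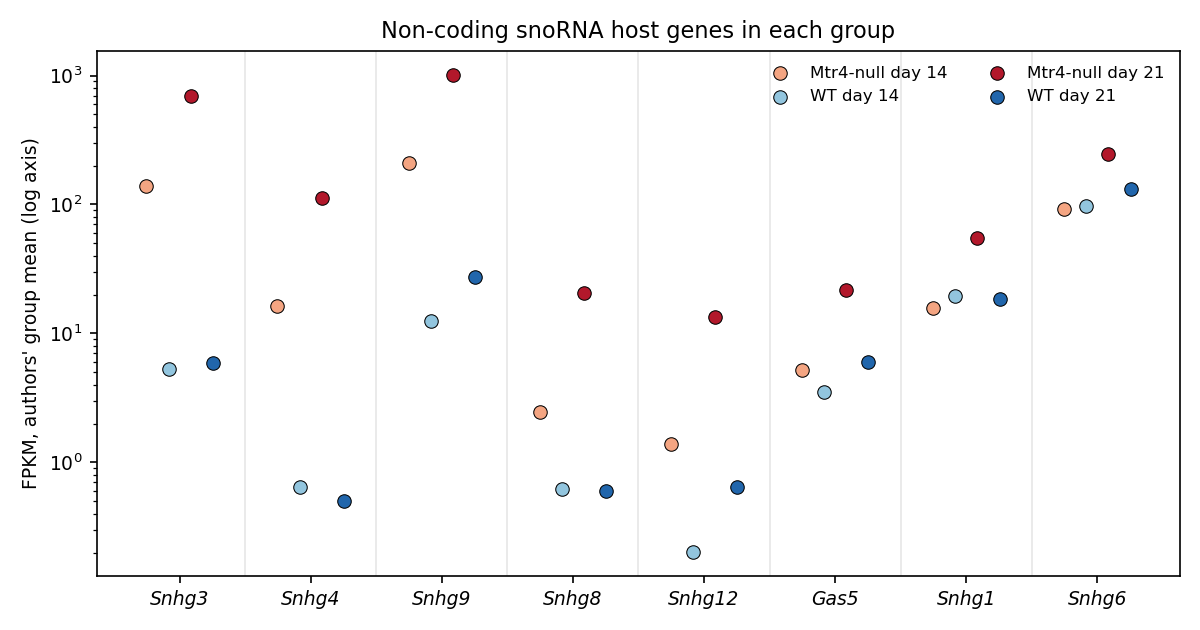
FPKM of the 8 host genes in the 4 groups, on a log axis, each point being the authors' mean for a group and genes running by their day 21 difference. Snhg3, Snhg4 and Snhg9 stand far above WT at both ages, while Snhg1 and Snhg6 lie beside WT at day 14 and above it at day 21.

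In GV oocytes at day 21, 7 of the 8 members were at least 2-fold higher in Mtr4-null than in WT oocytes and 0 were lower. Of all 11913 genes 20.2% were higher and 25.7% lower, while among the 579 other long non-coding genes these shares were 57.7% and 14.3%. The members' median difference was 3.45, against -0.27 over all genes and 1.36 over the other long non-coding genes. Snhg4, Snhg8 and Snhg12, among the 7 and in this median, passed the filter only through their Mtr4-null values. Their calls say little, which leaves Snhg1, Snhg3, Snhg9 and Gas5. The all-gene counts of 2410 higher and 3067 lower turned with the scaling, to 2612 and 2631 under median-of-ratios scaling, which moved the all-gene median to -0.15, and to 2895 and 2155, with a median of 0, when its factors came from genes past the filter, a setting chosen after seeing the data. Every member's day 21 difference was positive under each scaling.

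Snhg9 reached 1017 FPKM in Mtr4-null oocytes, against 27.6 FPKM in WT oocytes, a 36.9-fold ratio. Snhg3 stood at 693 FPKM in Mtr4-null and 5.85 FPKM in WT oocytes, a 118-fold ratio. Snhg4 stood at 113 FPKM in Mtr4-null and 0.499 FPKM in WT oocytes, a 226-fold ratio on a WT level under 1 FPKM. Snhg3 and Snhg4 ranked 76 and 106 of all 11913 genes by difference. Snhg8 stood at 20.7 FPKM in Mtr4-null and 0.604 FPKM in WT oocytes, and its difference was 3.76. Snhg12 stood at 13.5 FPKM in Mtr4-null and 0.647 FPKM in WT oocytes, and its difference was 3.14. Both were above 10 FPKM in Mtr4-null oocytes and under 1 FPKM in WT oocytes.

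The C/D hosts were also higher at day 21, by less. Gas5 stood at 21.8 FPKM in Mtr4-null and 5.98 FPKM in WT oocytes, a 3.65-fold ratio. Snhg1 stood at 54.5 FPKM in Mtr4-null and 18.4 FPKM in WT oocytes, a 2.96-fold ratio. Snhg6, the most abundant member in WT oocytes, stood at 247 FPKM in Mtr4-null and 132 FPKM in WT oocytes. Its difference of 0.90 missed the size rule and was 1.04 under median-of-ratios scaling.

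**Figure D2:**
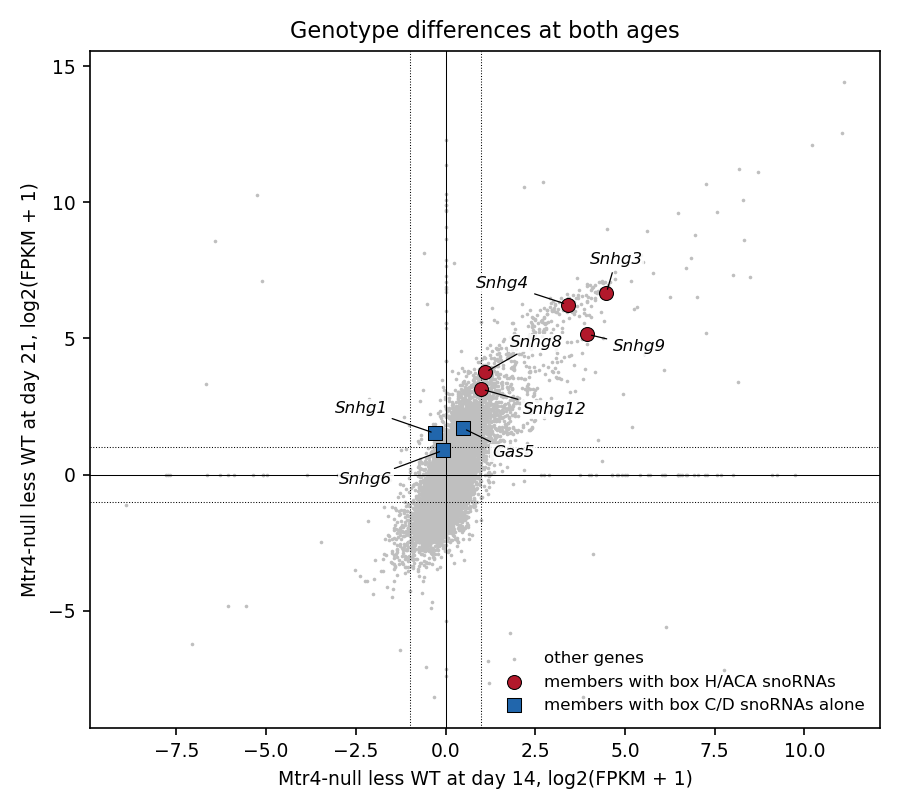
Differences in log2(FPKM + 1), Mtr4-null less WT, at day 14 (x axis) and day 21 (y axis) for 11913 genes, with the members coloured by the snoRNAs they carry and dotted lines at 2-fold. Snhg3, Snhg4 and Snhg9 lie in the upper right arm, and Snhg1 and Snhg6 lie left of 0 at day 14 and above 0 at day 21.

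The make-up of the host RNA pool differed between genotypes. The 8 members summed to 483 FPKM in Mtr4-null and 139 FPKM in WT oocytes at day 14, and to 2179 FPKM in Mtr4-null and 192 FPKM in WT oocytes at day 21. This was 0.335% of all FPKM in the table in Mtr4-null and 0.0317% in WT oocytes at day 21. Snhg9 and Snhg3 gave 43.3% and 28.9% of the sum in Mtr4-null oocytes at day 14 and 46.7% and 31.8% at day 21. In GENCODE vM21 the spliced model of Snhg9 is 183 bases long, while the longest of Snhg1 has 2728 bases. FPKM are scaled to transcript length, so the level of Snhg9, its share and its rank among the members are uncertain. In WT oocytes Snhg6 alone gave 69.6% at day 14 and 68.9% at day 21. In Mtr4-null oocytes the order of levels was the same at both ages, running from Snhg9 through Snhg3, Snhg6, Snhg4, Snhg1, Gas5 and Snhg8 to Snhg12. In WT oocytes Snhg6 was highest at both ages, with Snhg12 lowest at day 14 and Snhg4 lowest at day 21. Without replicates it is not known which neighbours in these orders differ beyond their spread.

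**Figure D3:**
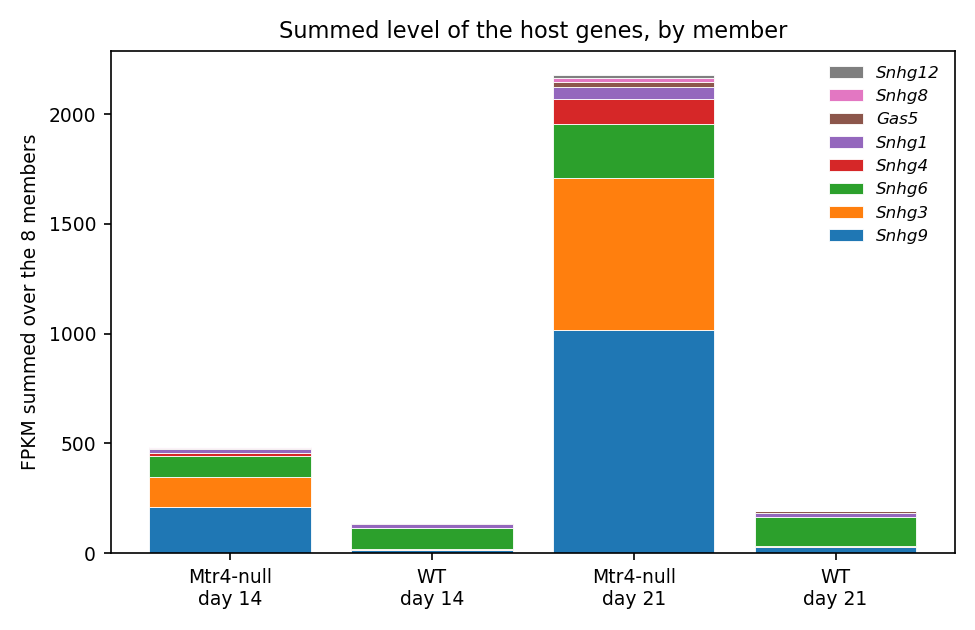
FPKM summed over the 8 members in each group, stacked by member, with Mtr4-null beside WT at each age. Snhg9 and Snhg3 fill most of the Mtr4-null bars, and Snhg6 fills most of the WT bars. The height of Snhg9 is uncertain, as its spliced model is 183 bases long.

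Between the ages, all 8 members were at least 2-fold higher at day 21 than at day 14 in Mtr4-null oocytes, where 9.08% of all genes were higher and 18.6% lower, as were 31.4% (higher) and 10.0% (lower) of the other long non-coding genes. The ratios of day 21 to day 14 FPKM ran from 2.65 for Snhg6 and 3.46 for Snhg1 to 8.36 for Snhg8 and 9.68 for Snhg12. The all-gene counts of 1082 higher and 2216 lower became 1553 and 1264 under median-of-ratios scaling and 1484 and 1595 under quantile normalization. In WT oocytes only Snhg9 was at least 2-fold higher at day 21 than at day 14, with 27.6 FPKM at day 21 and 12.6 FPKM at day 14, where 2.02% of all genes were higher and 3.32% lower, as were 3.45% (higher) and 1.73% (lower) of the other long non-coding genes. The other members' differences in WT oocytes ran from -0.14 for Snhg4 to 0.64 for Gas5. The difference of the genotype differences, day 21 less day 14, was at least 1 for 7 members, where 13.6% of all genes were this much higher and 22.4% lower, and of the other long non-coding genes 34.2% and 11.2%. It was largest for Snhg4, at 2.85, and smallest for Snhg6, at 0.96. These contrasts share group means with those above, so they restate the same 4 values per gene and are no separate support. Snhg4, Snhg8 and Snhg12 passed the filter only through their Mtr4-null values, so their part in the Mtr4-null and genotype counts says little.

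The split by snoRNA class was noticed after the values were seen and is given as a description. The 5 members that carry box H/ACA snoRNAs differed by 0.996 to 4.48 at day 14 and by 3.14 to 6.66 at day 21, with medians of 3.40 and 5.15. The 3 with box C/D snoRNAs alone differed by -0.29 to 0.48 at day 14 and by 0.90 to 1.71 at day 21, with medians of -0.060 and 1.52. The ranges did not overlap at either age, with few genes in each class and most H/ACA members selected on Mtr4-null values. WT levels differed between the classes as well, at 0.203 to 12.6 FPKM for the H/ACA hosts and 3.48 to 97.0 FPKM for the C/D hosts at day 14, and the part of that level in the split was not tested. Snhg4, Snhg8 and Snhg12, the members that passed the filter through Mtr4-null values, are all in the H/ACA class. Snhg12 gave the lowest H/ACA values at both ages and Snhg4 the day 14 median. The ranges, the medians and the lack of overlap therefore say little about the classes. Snhg3 and Snhg9, the other H/ACA members, differed by 4.48 and 3.95 at day 14 and by 6.66 and 5.15 at day 21.

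Other non-coding hosts, from a list chosen with earlier results of these data known, were read in the same way. Snhg7, Snhg11, Snhg17, Snhg20 and Dancr, all H/ACA hosts, were under 1 FPKM in both WT groups and passed the filter only through their Mtr4-null values, so their higher values say little. Of the 6 others that passed, 4 were at least 2-fold higher at day 14 and 5 at day 21, and 0 were lower. Of all genes, 8.1% and 20.2% were higher at these ages and 1.55% and 25.7% lower. Among the 579 long non-coding genes other than the members, 38.5% and 57.7% were higher and 3.11% and 14.3% lower. The H/ACA hosts among these others were Snhg10 and Snhg15 (row Gm11974). Snhg10 differed by 1.79 at day 14 and 3.24 at day 21, and Snhg15 by 1.17 and 3.72. Snhg20 (row 2810008D09Rik), which passed through its Mtr4-null values, stood at 93.6 FPKM in Mtr4-null and 0.479 FPKM in WT oocytes at day 21. The C/D hosts were less alike. Zfas1 (row 1500012F01Rik) stood at 69.0 FPKM in Mtr4-null and 8.18 FPKM in WT oocytes at day 21, a difference of 2.93. Snhg18 (row 0610007N19Rik) stood at 42.9 FPKM in Mtr4-null and 12.4 FPKM in WT oocytes at day 14, a difference of 1.71, so the ranges of the classes overlapped at day 14 outside the members. Snhg5, a C/D host, differed by 0.098 at day 14 and 1.31 at day 21. Snhg14 (row C230091D08Rik), a very long imprinted transcript known to carry C/D snoRNAs but not searched for boxes here, stood at 0.988 FPKM in Mtr4-null and 1.64 FPKM in WT oocytes at day 21. Protein-coding genes that hold snoRNA models had like medians in both classes. The 108 with H/ACA models alone, Snhg11 left out, had a median difference of -0.0044 at day 14 and -0.31 at day 21, and the 42 with C/D models alone had 0.015 and -0.40, all close to the medians of all genes.

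**Figure D4:**
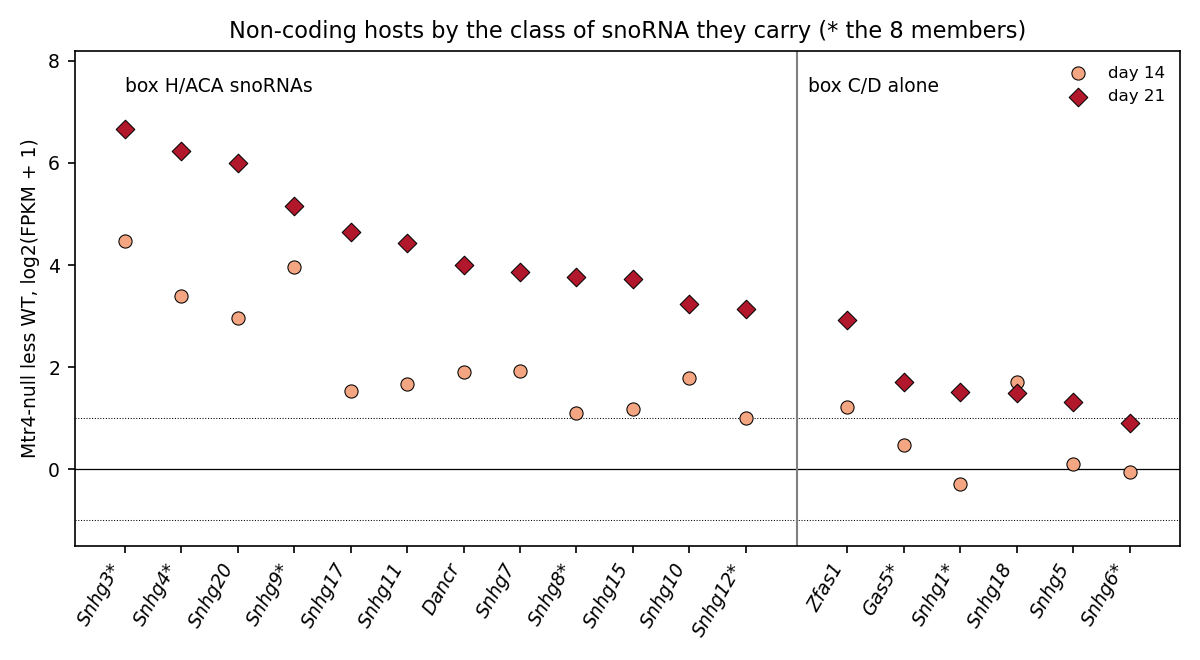
Differences in log2(FPKM + 1), Mtr4-null less WT, of the non-coding hosts that passed the filter and held snoRNA boxes, at day 14 (circles) and day 21 (diamonds), split by class, with members starred. At day 21 the H/ACA hosts shown lie between 3.14 and 6.66, and the C/D hosts shown between 0.90 and 2.93. At day 14 the classes overlap, with Snhg18 (C/D) at 1.71 and Snhg15 (H/ACA) at 1.17. Snhg14, not searched for boxes, is not shown. Snhg4, Snhg7, Snhg8, Snhg11, Snhg12, Snhg17, Snhg20 and Dancr, all H/ACA hosts, passed the filter only through their Mtr4-null values, so their heights say little. Among the H/ACA hosts left, Snhg10 was lowest at day 21, at 3.24, near the C/D host Zfas1 at 2.93.

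Of the 28 short RNA models inside the members, 12 had a row of their own, and these did not follow their hosts in any even way. Such RNAs carry no poly(A) tail and are shorter than most fragments, so FPKM of these rows are uncertain. Mir1949, in Snhg4, stood at 2668 FPKM in day 21 Mtr4-null oocytes and was listed at 0 in the 3 other groups. Snora74a, in the same host, stood at 36.3 FPKM in Mtr4-null and 0.957 FPKM in WT oocytes at day 14, and at 4.57 FPKM in Mtr4-null and 1.32 FPKM in WT oocytes at day 21. Snora78, in Snhg9, stood at 21.4 FPKM in Mtr4-null and 4.06 FPKM in WT oocytes at day 21. Snora24, in Snhg8, stood at 17.1 FPKM in day 21 Mtr4-null oocytes and was listed at 0 elsewhere. Snord22, in Snhg1, stood at 76.1 FPKM in day 21 Mtr4-null oocytes and was listed at 0 in WT oocytes of that age, but at day 14 it stood at 7.32 FPKM in Mtr4-null and 11.004 FPKM in WT oocytes. Snord87, in Snhg6, stood at 88.1 FPKM in day 14 Mtr4-null oocytes and was listed at 0 elsewhere, whereas Snord47, in Gas5, stood at 167 FPKM in WT oocytes at day 21 and was listed at 0 elsewhere. Of the snoRNAs in Snhg12, Snora16a stood at 37.3 FPKM in Mtr4-null and 7.08 FPKM in WT oocytes at day 21, and Snora44, Snora61 and Snord99 were listed at 0 in every group.

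Several members overlap or adjoin a coding gene, and the library method does not keep the strand, so reads from a shared stretch can be counted for either gene. Rcc1, which encodes the exchange factor of the GTPase Ran and overlaps Snhg3 on the same strand, stood at 10.6 FPKM in Mtr4-null and 16.3 FPKM in WT oocytes at day 21, the opposite direction to Snhg3. Rps2, a ribosomal protein gene that overlaps Snhg9 on the other strand, stood at 285 FPKM in Mtr4-null and 289 FPKM in WT oocytes at day 21. Zbtb37, across from Gas5, stood at 18.9 FPKM in Mtr4-null and 15.7 FPKM in WT oocytes. Slc3a2, an amino acid transporter subunit gene beside Snhg1, stood at 66.4 FPKM in Mtr4-null and 62.1 FPKM in WT oocytes. These 4 neighbours were within 2-fold at both ages. Matr3, next to Snhg4, stood at 44.5 FPKM in Mtr4-null and 91.3 FPKM in WT oocytes at day 21, a difference of -1.02. Gm28285, a coding model that overlaps Snhg4 on the same strand, had no values. Prss12, beside Snhg8, stood at 0.566 FPKM in Mtr4-null and 13.1 FPKM in WT oocytes at day 21, a difference of -3.17. Trnau1ap, beside Snhg12, stood at 81.7 FPKM in Mtr4-null and 32.6 FPKM in WT oocytes at day 21, a difference of 1.30. Mcmdc2, which overlaps Snhg6, was low, at 2.68 FPKM in Mtr4-null and 0.414 FPKM in WT oocytes at day 21. Its difference of 1.38 was larger than that of the far more abundant Snhg6.

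**Figure D5:**
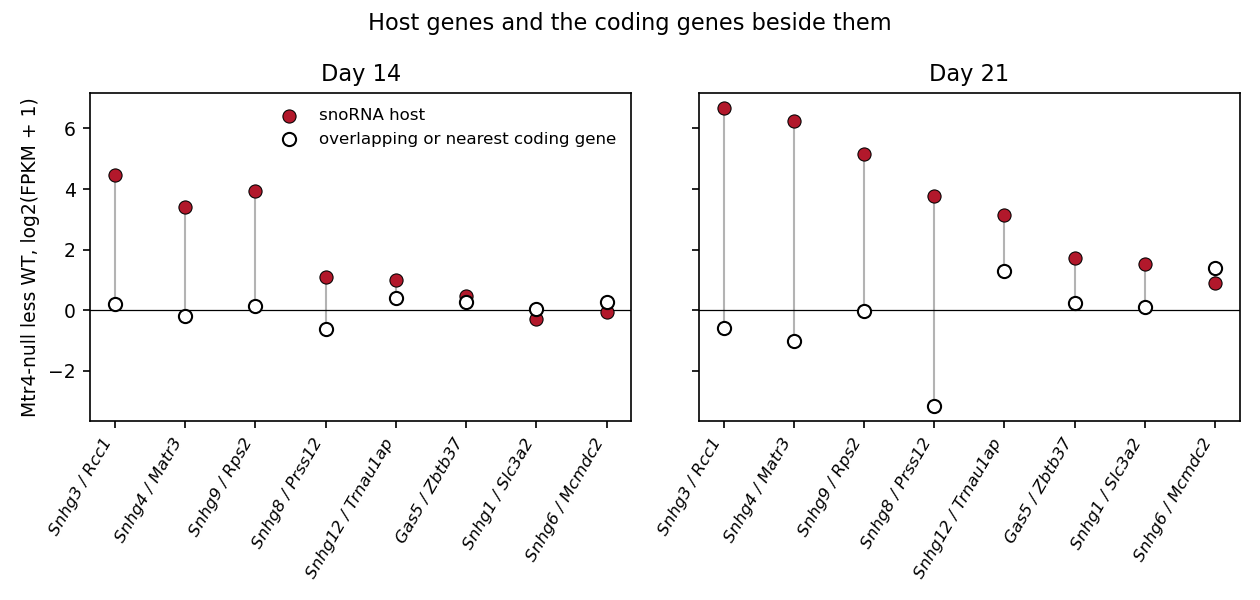
Differences in log2(FPKM + 1), Mtr4-null less WT, of each host (filled) and of a coding gene beside it (open), at day 14 and day 21. The coding gene is one with values that overlaps the host or lies nearest. At day 21 Rcc1, Matr3 and Prss12 lie below 0 under hosts that lie above it, and Rps2 lies just below 0, at -0.020. Mcmdc2, which was low in FPKM, alone lies above its host at day 21.

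The start sites of 6 members, all but Snhg4 and Snhg6, were in the RefSeq promoter table (GRCm38.p6). They are printed from 40 bases before to 50 after the start. Capitals mark a TATA-like motif. Where a gene had several starts, a start with such a motif in the printed stretch was preferred. The motifs marked, their positions and the first bases given below therefore rest partly on that choice.
Snhg1 (chr19:8723447-8723536, plus strand): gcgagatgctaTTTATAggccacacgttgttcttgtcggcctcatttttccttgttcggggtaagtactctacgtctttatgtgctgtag
Snhg3 (chr4:132353637-132353726, minus strand): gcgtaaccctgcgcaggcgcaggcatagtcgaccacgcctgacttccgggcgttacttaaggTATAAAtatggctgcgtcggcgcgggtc
Snhg8 (chr3:123508287-123508376, minus strand): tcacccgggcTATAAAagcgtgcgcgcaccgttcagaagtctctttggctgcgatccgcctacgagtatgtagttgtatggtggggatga
Snhg9 (chr17:24719916-24720005, minus strand): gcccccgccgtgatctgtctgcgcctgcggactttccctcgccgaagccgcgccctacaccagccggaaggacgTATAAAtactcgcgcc
Snhg12 (chr4:132308638-132308727, plus strand): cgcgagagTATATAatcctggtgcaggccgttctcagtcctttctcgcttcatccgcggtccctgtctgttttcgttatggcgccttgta
Gas5 (chr1:161035126-161035215, plus strand): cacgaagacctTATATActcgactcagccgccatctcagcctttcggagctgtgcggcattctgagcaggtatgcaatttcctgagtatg
TATAAA, searched on both strands, lay in the 300-base windows of Snhg1, Snhg3, Snhg8 and Snhg9, and in those of 15.7% of 27025 genes. TATATA lay in those of Snhg12 and Gas5, and of 6.66% of genes. The 2 motifs can overlap each other. Either was held by 19.6% of 27025 genes with a promoter in the table. In Snhg1, Snhg8, Snhg12 and Gas5 the motif lay wholly 40 to 11 bases before the start, which held for 4.13% of genes, while in Snhg3 and Snhg9 it lay after the start given by RefSeq. Many non-coding hosts are known to start with a run of pyrimidines, as ribosomal protein genes do. In these models the Gas5 transcript begins with CTTTC, and those of Snhg1 and Snhg8 also begin with a C followed by a pyrimidine, that of Snhg12 begins with TTTCT, pyrimidines without a first C, and those of Snhg3 and Snhg9 begin with a G.

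Genes that act on the hosts or their snoRNAs were read from lists also chosen with earlier results known. Their counts stand beside all-gene shares of 8.1% higher and 1.55% lower at day 14 and of 20.2% higher and 25.7% lower at day 21, and lists near those shares show nothing of their own. Of 54 genes listed as protein-coding snoRNA hosts, 48 held a snoRNA model in GENCODE vM21. Of these 48, 0 were at least 2-fold higher or lower at day 14, and 3 were higher and 7 lower at day 21, with medians of -0.16 and -0.36. Eif4a2, a translation initiation helicase gene, stood at 227 FPKM in Mtr4-null and 99.2 FPKM in WT oocytes at day 21, and Hspa8, a chaperone gene, at 218 FPKM in Mtr4-null and 567 FPKM in WT oocytes. The 6 listed genes in which no model was found, Rpl7l1, Cct6a, Toe1, Snrpb, Npm1 and Hsp90ab1, gave 1 higher at day 14 and 4 at day 21 and are not counted as hosts here. Among 19 snoRNP proteins and assembly factors, 0 passed the size rule at day 14, and 2 were higher and 6 lower at day 21. Znhit3, an assembly factor of box C/D particles, stood at 271 FPKM in Mtr4-null and 46.1 FPKM in WT oocytes at day 21. Dkc1, the pseudouridine synthase of box H/ACA particles, stood at 26.0 FPKM in Mtr4-null and 82.1 FPKM in WT oocytes at day 21.

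Among 22 nonsense-mediated decay factors, 1 was higher and 1 lower at day 14, and 2 were higher and 5 lower at day 21, with medians of 0.085 and -0.40. Upf3b stood at 6.79 FPKM in Mtr4-null and 18.3 FPKM in WT oocytes at day 21, and Upf2 at 2.34 FPKM in Mtr4-null and 9.78 FPKM in WT oocytes. Pnrc2 was among the higher, at 21.2 FPKM in Mtr4-null and 5.94 FPKM in WT oocytes. Among 27 nuclear RNA decay factors, 2 were higher and 1 lower at day 14, and 4 were higher and 6 lower at day 21. Exosc2, an exosome subunit, stood at 913 FPKM in Mtr4-null and 20.9 FPKM in WT oocytes at day 21. Among 11 genes listed as regulators of mRNAs with a terminal oligopyrimidine tract, 0 passed at day 14. At day 21, 3 were higher and 2 lower. The largest fall was that of Larp7, at 10.2 FPKM in Mtr4-null and 45.3 FPKM in WT oocytes. Whether Larp7 acts on such mRNAs was not examined. Tia1 stood at 4.26 FPKM in Mtr4-null and 0.107 FPKM in WT oocytes at day 21, and Mtor, the growth kinase, at 1.47 FPKM in Mtr4-null and 5.27 FPKM in WT oocytes.

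By Euclidean distance of centred log2(FPKM + 1) over the 4 groups, the genes nearest to the members' median profile among 11735 candidates were Prpf18, Ehbp1l1, Lima1, Foxr1 and A230072E10Rik, at distances of 0.053 to 0.17. Prpf18, a splicing factor gene, stood at 345 FPKM in Mtr4-null and 30.6 FPKM in WT oocytes at day 21. Foxr1, a forkhead factor gene, stood at 590 FPKM in Mtr4-null and 49.2 FPKM in WT oocytes. The members themselves lay farther from their own median, at 0.245 for Snhg8 and for Snhg12 and at 3.33 for Snhg3, so the median profile stands for few of them.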

How the data were processed

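Poly(A) RNA of 10 oocytes per sample was made into Smart-seq2 libraries with ERCC spike-in RNA, per the labels' protocols. TopHat2 2.1.1, Cufflinks 2.2.1 and the build mm9 are named in the submitters' processing notes, with no role given. The deposited table holds FPKM, and each of its 4 columns is a mean over a group made by the authors; it has 0 ERCC rows. A test planned for values per library (limma) could not be run. Differences of log2(FPKM + 1) were computed with Python 3.11.15, numpy 2.4.6 and pandas 2.3.3 for 11913 genes averaging at least 1 FPKM, and 2-fold was the size rule. The contrast code was tested on simulated data. Gene models and sequences came from GENCODE vM21 and RefSeq on GRCm38, matched by name; the files' build differs, so only coordinates of printed sequences are given. Box C/D was read from ATGA in the first 20 bases with CTGA in the last 15, and box H/ACA from ACA in the last 8. The members and all lists were chosen with earlier results of these data known. Named genes are the members, their overlapping and nearest genes, short RNA rows inside them, list genes with the largest day 21 differences and the most abundant, the targeted gene, and the 5 nearest profiles; a selection of these is printed. Alternatives were a pseudocount of 0.1, median-of-ratios and quantile scaling, no filter, and a mean FPKM of at least 5. After its result was seen, median-of-ratios scaling was also run with factors from genes past the filter, and both are given.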

Additional observations from a re-analysis of the deposited data

How the results depend on the processing

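No paired analysis was possible because the table holds 1 mean per group, and leaving out single libraries could not be run for the same reason. Of 235 values of single members under the alternatives, 225 stayed on their side of 2-fold, 3 fell inside it, 7 passed it and 0 changed sign after having passed it. Besides those in the report, Snhg6 passed it for the difference of genotype differences at 1.25 (median-of-ratios) and 1.02 (quantile), Snhg9 fell inside it there at 0.91 (quantile), and Snhg12 passed it between the ages in WT oocytes at 1.30 with a pseudocount of 0.1, which made 2 members in place of 1. With factors from genes past the filter, added after the first median-of-ratios result was seen, Snhg6 reached 1.22 at day 21 and 1.38 for the difference of differences, and Snhg8 stayed past 2-fold at day 14. Counts over all genes moved more. Genes lower at day 14 numbered 334 (pseudocount 0.1) and 321 (quantile, with 706 higher), against 185 lower and 965 higher. Those higher at day 21 numbered 1447 with a mean FPKM of at least 5, against 2410. Between the ages in Mtr4-null oocytes, 695 were higher with that filter and 1813 with the added scaling, against 1082, and 1264 (median-of-ratios) and 1044 (added) were lower, against 2216. In WT oocytes, 133 (mean FPKM of at least 5) and 447 (pseudocount 0.1) were higher, against 241, and 835 (pseudocount 0.1) were lower, against 396. For the difference of differences, 1042 (mean FPKM of at least 5) were higher, against 1618, and 1760 (median-of-ratios, with 2090 higher) and 1474 (added, with 2360 higher) were lower, against 2672. A mean FPKM of at least 5 leaves out Snhg12. The causes were not tested, apart from fewer genes under the stricter filter.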
